A study of Rattus norvegicus with 2 samples.

Results

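The genes described here code for potassium channels and voltage-gated cation channels, with their auxiliary subunits. They were the listed genes whose rat symbol starts with Kcn or Cacn, or with Scn or Hcn followed by a digit, and 74 of the 9894 genes in the tables met this rule. For 73 of them the symbol came from the RefSeq accession, and Cacna1d was recognised from the description beside its accession. The tables hold 1 control library and 1 PIWIL1 RNAi library, both from cortex of Sprague-Dawley rat embryos at E16. The tissue was dissociated and electroporated with a control plasmid or a plasmid coding for a PIWIL1 siRNA. Culture lasted 48 h in Neurobasal medium with serum and B27. The cells were not sorted after electroporation, so each library may mix cells that did and did not take up plasmid, and the labels do not name the siRNA used.

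Voltage-gated channels open when the membrane depolarizes. Sodium channels carry the upstroke of the action potential, calcium channels couple depolarization to calcium entry and transmitter release, and potassium channels repolarize the cell or set its resting potential. Many pores work with auxiliary subunits that control its traffic and gating. Hcn channels open on hyperpolarization and carry the pacemaker current. Young cortical neurons are known to express these genes before synapses mature, and calcium entry through them takes part in neurite growth and migration.

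Both are digital gene expression libraries, which represent a transcript by the 21 bases that begin at a CATG site. A gene's value is the sum of the copies of its tags, and TPM is that number per 1000000 clean tags of the library, not scaled to transcript length. The order of genes by copies is therefore the order in which they were read and not an order of transcript abundance. The control library held 1947600 copies on genes and the RNAi library 1865913, and 3 copies correspond to 0.886 and 0.908 TPM. No value was found for PIWIL1 itself, so its knockdown was not checked here. Markers of neurons were read from 12 of 12 genes, with 4742 TPM in the control and 4272 TPM in the RNAi library, among them Tubb3 (1538 and 1068 copies) and Dcx (1337 and 1365 copies). Stmn2 was the largest part of this sum (7484 and 5678 copies). The neuron markers did not share a direction. Gap43 (2670 and 3541) and Neurod2 (570 and 777) were higher, and Snap25 (918 and 545) and Neurod6 (1275 and 849) were lower. Radial glia and progenitor markers summed to 1071 and 1356 TPM (6 of 7 genes, Eomes without a tag). Only Vim was higher in the RNAi library (2674 and 3724 copies), and the other 5 were lower, among them Sox2 (320 and 260) and Nes (181 and 125). Vessel and fibroblast markers summed to 539 and 516 TPM, all from 3 collagen genes, with Cldn5, Pecam1, Kdr and Rgs5 at no copy. Astrocyte markers summed to 126 and 145 TPM (4 of 5, Aqp4 at no copy), interneuron markers to 65.5 and 75.1 TPM (5 of 5), microglia markers to 14.2 and 16 TPM (2 of 4, Cx3cr1 and Itgam at no copy) and oligodendrocyte lineage markers to 7.38 and 5.75 TPM (6 of 6). The part of these cell types in the ratios below was not tested, and in bulk cultures fewer cells of a type and less RNA per cell cannot be told apart.

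Most channel genes were read at low depth. Of the 74 genes, 50 (67.6%) were listed in both libraries, 16 only in the control and 8 only in the RNAi library. Of all 9894 genes, 89.9% were listed in both, 597 only in the control and 398 only in the RNAi library. The median of the channel genes was 11.5 copies in both libraries together, against 86.5 for all genes. At least 10 copies were found for 40 channel genes (54.1%), against 83.7% of all genes, and at least 50 copies for 18 (24.3%), against 60.7%. Together the 74 genes held 4915 copies, of which Cacnb3 alone took 40.9% and the 12 most copied genes 81.4%. The RefSeq table has 139 protein-coding rat symbols that meet the rule, so 65 had no tag in the tables used here. These were not analysed here. The Kcnip genes, whose products bind Kv channels of the Kcnd family, were among them.

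The tags that carry most of the values below are printed here, with CATG and, where a tag ends in 3 or more A, that run in capitals. They are numbered by CATG site from the 3′ end of the transcript, as deposited.
Cacnb3 site 1: CATGctccattaagaacccgc
Kcnk5 site 1: CATGaaccagcAAAAAAAAAA
Scn3b site 1: CATGgttccaataaagtctct
Scn3b site 2: CATGtgcacaagttaaggccc
Scn3b site 3: CATGtgaacagacagacattg
Kcnmb4 site 1: CATGggcactcgcctaccctg
Cacng2 site 1: CATGtacaccctcagtaggga
Cacna1c site 1: CATGtaaagtaaatcattttg
Kcnd3 site 1: CATGttagggtatcagtaaat
Kcnh2 site 1: CATGgctcagatccaggcagt
Kcnh2 site 2: CATGgccactgtcctacagct
The tag ends are given because the ratio between the libraries differed with them over all genes. Among tags with at least 20 copies, the median log2 ratio was -0.67 for 866 tags ending in TG, -0.67 for 634 ending in GT and 0.15 for 1023 ending in GC. For the 37 tags with exactly 10 A at the end it was 1.16.

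Which channel genes differed between the control and the RNAi library was asked with Fisher's exact test per gene against all other tags on genes, with Benjamini-Hochberg adjustment (FDR) over all 9894 genes. To be called, a gene had to have an FDR within 0.05 and to differ by at least 0.58 on the log2 scale. With 1 library per condition this test compares the libraries and not the conditions, and there was no replicate check. Of the 74 channel genes, 1 was called lower in the RNAi library (Cacng2), against 5.97% of all genes, and 1 was called higher (Kcnk5), against 2.96% of all genes. Only Cacng2, Kcnk5 and Cacnb3 had an unadjusted p under 0.05 by Fisher's exact test, which is 4.05% of the channel genes and 26.5% of all genes. A gene needed at least 174 copies for a 1.5-fold rise to come within the FDR threshold, 62 for a 2-fold rise and 25 for a 3-fold rise, and 4, 15 and 23 channel genes had as many. For 28 genes with fewer than 7 copies no split between the libraries could have been called.

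**Figure D1:**
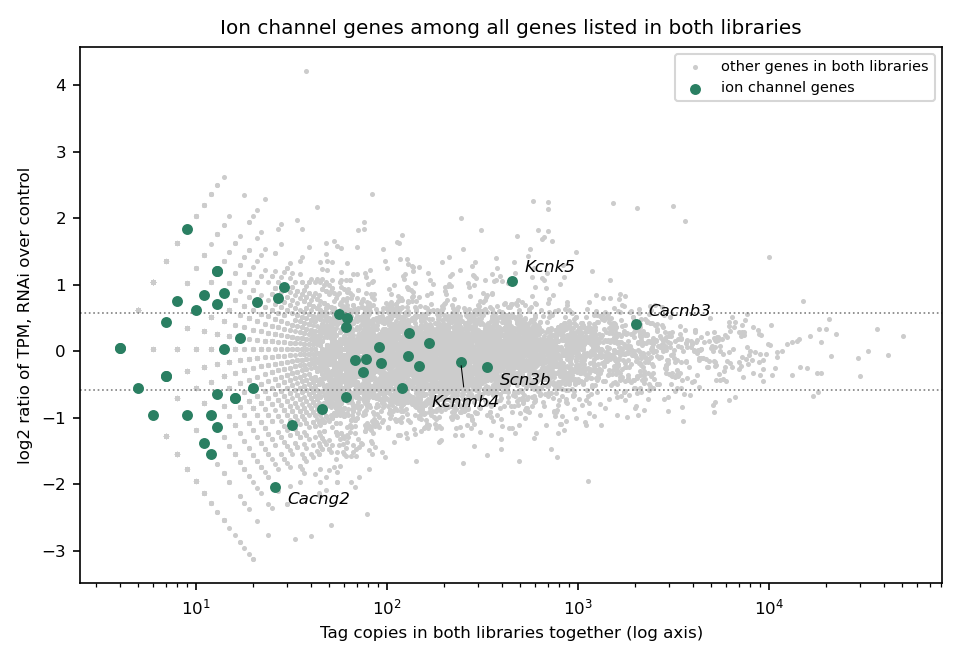
Each point is a gene listed in both libraries, with its tag copies in both libraries together on a log axis and its log2 ratio of TPM (RNAi over control); green points are ion channel genes and dotted lines mark the ratio threshold of 0.58. Kcnk5 lies above the upper line, Cacng2 below the lower one at 26 copies, and Cacnb3, with 2011 copies, just inside.

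Among the channel genes with at least 10 copies, 21 had a log2 ratio below 0 and 19 above it, and the median was -0.09 (quartiles -0.66 and 0.57), beside -0.09 (quartiles -0.43 and 0.22) for the 8264 genes of all kinds that passed the same filter. Of the 8264 genes, 4772 had a log2 ratio below 0 and 3485 above it. The 95% interval, which is exact and covers counting error only, included 0 for 36 of the 40 channel genes and for 5842 of the 8264. The channel genes had fewer copies, as given above. A log2 ratio beyond the threshold without an FDR within 0.05 was found for 19 of the 40, all with 61 copies or fewer. Among the 18 genes with at least 50 copies, Kcnk2 (-0.69) was past the ratio threshold downwards, as were 12.3% of all genes with that many copies, and Kcnk5 (1.06) was past it upwards, as were 5.86%.

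**Figure D2:**
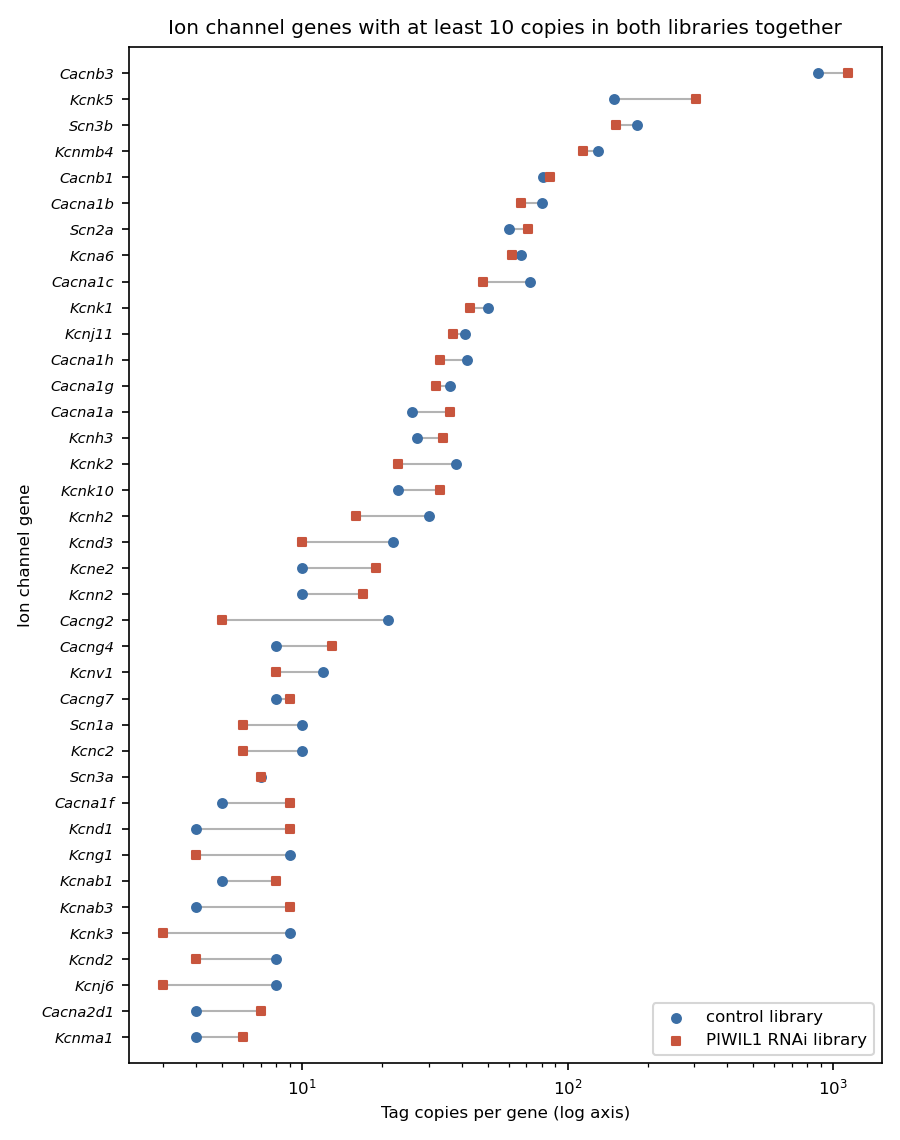
Tag copies of 38 of the 40 channel genes whose copies in the 2 libraries sum to 10 or more, on a log axis, in the control library (circles) and the PIWIL1 RNAi library (squares). Cacnb3 stands apart with 876 and 1135 copies, and most other genes had fewer than 100 copies in each library.

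Calcium channels are built from a pore subunit (Cacna1), a cytosolic beta subunit (Cacnb) that brings the pore to the membrane, and an extracellular Cacna2d subunit. The beta subunit gene Cacnb3 was the most copied channel gene, with 876 copies in the control and 1135 in the RNAi library, or 259 and 344 TPM. Its ratio was 1.33 and its log2 ratio 0.41 (95% interval 0.28 to 0.54, Fisher's exact test, FDR 6.18e-10). It was not called, since the ratio was below the threshold. The site 1 tag printed above had 821 and 1066 of these copies, and 6 further tags at the same site, each 1 base away from it, had 6 and 12. The next most copied tag, at site 2, had 19 and 20 copies. The site 1 tag ends in GC. Copies were also corrected for how far the median ratio of each tag end lay from that of all tags (the tag-end correction). The log2 ratio of Cacnb3 was then 0.21. Of its other tags, the one at site 6, CATGaggaagagacatggttc, had 3 and 12 copies, and those at sites 3 and 4 had 9 and 7 and 9 and 6.
Cacnb1 was read from 81 copies in the control and 86 in the RNAi library (log2 ratio 0.12, 95% interval -0.33 to 0.58). Its copies lay on 9 tags at 9 sites, with 60 and 54 at site 1. Cacnb2 had 4 copies, all in the RNAi library.

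All 7 listed Cacna1 genes had copies in both libraries and none was called. The pore of the N-type channel of nerve terminals, Cacna1b, had 80 and 67 copies (log2 ratio -0.22, 95% interval -0.71 to 0.27). Its tags did not move together, since the site 1 tag went from 24 to 35 copies and the site 4 tag from 27 to 16. The L-type pore Cacna1c had 72 and 48 copies, a log2 ratio of -0.55 (95% interval -1.11 to -0.0021). By Fisher's exact test, which uses copies on genes as totals, its unadjusted p was 0.055 and its FDR 0.202. The TG-ending site 1 tag printed above held 93.3% of its copies, 70 and 42, and the tag-end correction brought the log2 ratio to -0.01.
The P/Q-type pore Cacna1a (26 and 36 copies) and the T-type pores Cacna1g (36 and 32) and Cacna1h (42 and 33) had intervals that included 0. For Cacna1a, 18 and 33 of these copies were on the site 6 tag CATGacattaaaaagaacAAA. Cacna1f, an L-type pore known from photoreceptors, had 5 and 9 copies, all from 1 tag at site 22, and Cacna1d, another L-type pore, had 6 and 3. Summed over the family, Cacna1 tags had 267 copies in the control and 228 in the RNAi library, or 78.8 and 69.0 TPM (log2 ratio -0.19, 95% interval -0.45 to 0.07). The Cacna2d genes were read from 6 and 7 copies, most of them of Cacna2d1 (4 and 7), the target of gabapentin.

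Cacng2, the gene of stargazin, was called lower. Stargazin belongs to the TARP proteins, which carry AMPA-type glutamate receptors to synapses, and its gene shares the calcium channel name by descent. It had 21 copies in the control and 5 in the RNAi library, or 6.2 and 1.51 TPM. The log2 ratio was -2.04 (95% interval -3.80 to -0.59; Fisher's exact test, FDR 0.0199), and -2.03 with the tag-end correction. All 3 of its tags were lower. The site 1 tag went from 14 to 5 copies, and the tags CATGtttatcgaccgccacaa (site 2) and CATGggtggtctctgcatcgc (site 3) had 3 and 4 copies in the control and were not listed in the RNAi library. The lowest copy number listed for a tag is 2, so a tag seen once would be missing. Counting each tag that only 1 library lists as 1 copy in the other gave Cacng2 a log2 ratio of -1.55 (Fisher's exact test, FDR 0.0771), which was not called. It was not called either from its most copied tag alone (-1.45) or with edgeR's exact test when a coefficient of variation of 0.1 between cultures was assumed. The other TARP genes were not called. Cacng4 had 8 and 13 copies and Cacng7 8 and 9, while Cacng8 had 2 copies, all in the control.

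The Kcnk genes code for K2P channels, which leak potassium at rest. Kcnk5, an acid-sensitive member known best from kidney, had 150 copies in the control and 305 in the RNAi library, or 44.3 and 92.3 TPM. This was a 2.08-fold difference (log2 ratio 1.06, 95% interval 0.77 to 1.35; Fisher's exact test, FDR 3.73e-13). Every copy was on 1 of 6 tags of site 1, each ending in 10 or 11 A, and no other CATG site of the gene had a tag. The most copied one had 122 and 263 copies, 84.6% of the gene, and a log2 ratio of 1.14 (95% interval 0.83 to 1.47). The median over all tags with a run of 10 A and at least 20 copies, 1.16, lay within this interval. Kcnk5 tags are among the 37 behind that median, and without channel genes it was 1.21 (34 tags). With the tag-end correction Kcnk5 had a log2 ratio of -0.17 (Fisher's exact test, FDR 0.623) and was not called. The deposited copies of Kcnk5 were called with an assumed coefficient of variation of 0.1 and not with 0.2.
The tags of Kcnk5 also differ among themselves at the bases before the run, and they are shown because the most copied one is not the one the others surround.
Centre tag: CATGaacaagcAAAAAAAAAA
A8C: CATGaaccagcAAAAAAAAAA
G10A: CATGaacaaacAAAAAAAAAA
C7T: CATGaataagcAAAAAAAAAA
C11A: CATGaacaagAAAAAAAAAAA
A9T: CATGaacatgcAAAAAAAAAA
Positions are counted from 1 at the 5′ end of the tag, and each of the 5 lower tags differs from the centre tag at 1 base. The centre tag had no copy in the control and 2 in the RNAi library, whereas A8C had 122 and 263, G10A 10 and 25, C7T 16 and 11, C11A 2 and 2 and A9T none and 2. The tags did not share a direction, since the log2 ratio was 1.36 for G10A (95% interval 0.25 to 2.58) and -0.50 for C7T (95% interval -1.76 to 0.69). Over all genes, 879 of 889 sites with at least 3 tags had such a centre tag, and in 58 of the 879 (6.60%) the most copied tag was another one. For Cacnb3, the only other channel gene with 3 or more tags at 1 site, the centre tag was the most copied tag. Which transcripts carry the A8C tag was not tested, and these tags were listed under Kcnk5 alone.

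**Figure D3:**
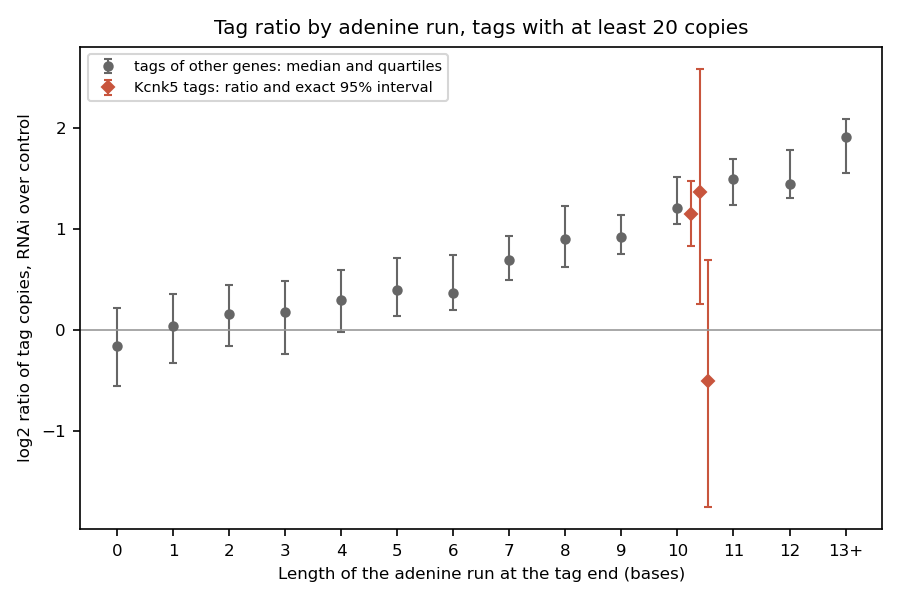
Median log2 ratio (RNAi over control) of tags of genes other than channel genes, with quartiles, against the length of the run of A at the tag end, and the 3 Kcnk5 tags with at least 20 copies (diamonds, exact 95% intervals). The median climbs from -0.16 without a run to 1.21 at 10 A, and the most copied Kcnk5 tag lies at 1.14.

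The other Kcnk genes were read from tags with no run of 8 or more A. Kcnk1 had 50 and 43 copies (log2 ratio -0.18, 95% interval -0.80 to 0.44). The mechanosensitive pair Kcnk2 and Kcnk10 had log2 ratios of opposite sign, with 38 and 23 copies for Kcnk2 (-0.69, 95% interval -1.50 to 0.10) and 23 and 33 for Kcnk10 (0.56, 95% interval -0.25 to 1.39), and both intervals included 0. For Kcnk10 a single tag, at site 7, was listed in the RNAi library only, with 9 copies. Kcnk3 had 9 and 3 copies and Kcnk15 had 2 and 7. Without Kcnk5 the family summed to 122 copies in the control and 111 in the RNAi library (log2 ratio -0.10, 95% interval -0.48 to 0.28), against 0.65 (0.43 to 0.87) with it.

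Voltage-gated potassium pores were read from few copies and none was called. Kcna6, a Kv1 pore, had 67 and 62 copies (log2 ratio -0.08, 95% interval -0.60 to 0.44), and Kcna4 was the only other Kcna gene listed, with 3 and 5. Kcnd3, an A-type pore that limits firing, had 22 and 10 copies (-1.10, 95% interval -2.34 to 0.04; Fisher's exact test, FDR 0.194), with its site 1 tag at 17 and 4. From that tag alone Kcnd3 was called lower (-2.05; Fisher's exact test, FDR 0.0478). The sister pores Kcnd1 and Kcnd2 had 4 and 9 and 8 and 4. Of the Kv3 genes, which serve fast-spiking cells, Kcnc2 had 10 and 6 copies, Kcnc1 had 5 and Kcnc4 had 2, the last pair in the control only.
Kcnh2, the ERG channel gene, had 30 and 16 copies (-0.87, 95% interval -1.84 to 0.05). Its tags disagreed, with 15 and 2 copies at site 1 and 8 and 9 at site 2. The others had 5 and none at site 3, none and 2 at site 5, and 2 and 3 at site 6. The site 1 tag ends in GT, and with the tag-end correction the log2 ratio of Kcnh2 was -0.63, not called. Kcnh3, a pore of the same family, had 27 and 34 copies (0.37, 95% interval -0.40 to 1.15), and its log2 ratio was -0.11 with the tag-end correction. The most copied tag of Kcnh3, CATGttttttatattAAAAAA, had 13 and 26 copies. The delayed rectifier gene Kcnb2 had 4 copies and the M current gene Kcnq3 had 2, both in the control only.

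Among calcium-activated channels, the auxiliary BK subunit Kcnmb4, the form typical of neurons, had 130 and 114 copies (log2 ratio -0.15, 95% interval -0.53 to 0.22). Its pore partner Kcnma1 had 4 and 6. Tags ending in TG held the site 1 and site 3 copies of Kcnmb4, and with the tag-end correction its log2 ratio was 0.40 (Fisher's exact test, FDR 0.111), not called. Kcnn2, a small-conductance channel, had 10 and 17 copies (0.80, 95% interval -0.41 to 2.09). Of the inward rectifiers, Kcnj11, the pore of the ATP-sensitive channel, had 41 and 37 copies (-0.11, 95% interval -0.79 to 0.57), and its regulatory partner Abcc8 had 5 and 3. The G protein-activated rectifier genes were near the floor, with Kcnj6 at 8 and 3 copies and Kcnj3 at 4 and none. Of the silent Kv subunits, which form no channel alone, Kcnv1 had 12 and 8 copies and Kcng1 9 and 4. The cytosolic Kv beta subunits Kcnab1 and Kcnab3 had 5 and 8 and 4 and 9 copies, and the auxiliary subunit Kcne2 had 10 and 19 (0.96, 95% interval -0.21 to 2.23).

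Sodium channels were represented mainly by a beta subunit and by Scn2a, the pore of young axons. Scn3b, an adhesion-like beta subunit, had 183 and 152 copies, or 54.0 and 46.0 TPM (log2 ratio -0.23, 95% interval -0.55 to 0.09; Fisher's exact test, FDR 0.469). The 4 most copied tags of Scn3b had 87 and 66 copies at site 1, 43 and 61 at site 2, 16 and 3 at site 3, and 30 and 17 at site 4, so they did not share a direction. Scn2a had 60 and 71 copies on 13 tags (0.28, 95% interval -0.24 to 0.80), with 21 and 37 on its site 1 tag. Scn1a had 10 and 6 copies, Scn3a 7 and 7, and Scn8a and Scn2b 2 copies each, in the control only. All sodium channel tags together went from 272 to 241 copies (log2 ratio -0.14, 95% interval -0.39 to 0.12). The 4 Hcn genes summed to 11 and 4 copies (-1.42, 95% interval -3.53 to 0.33), and none had more than 6 in all.

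**Figure D4:**
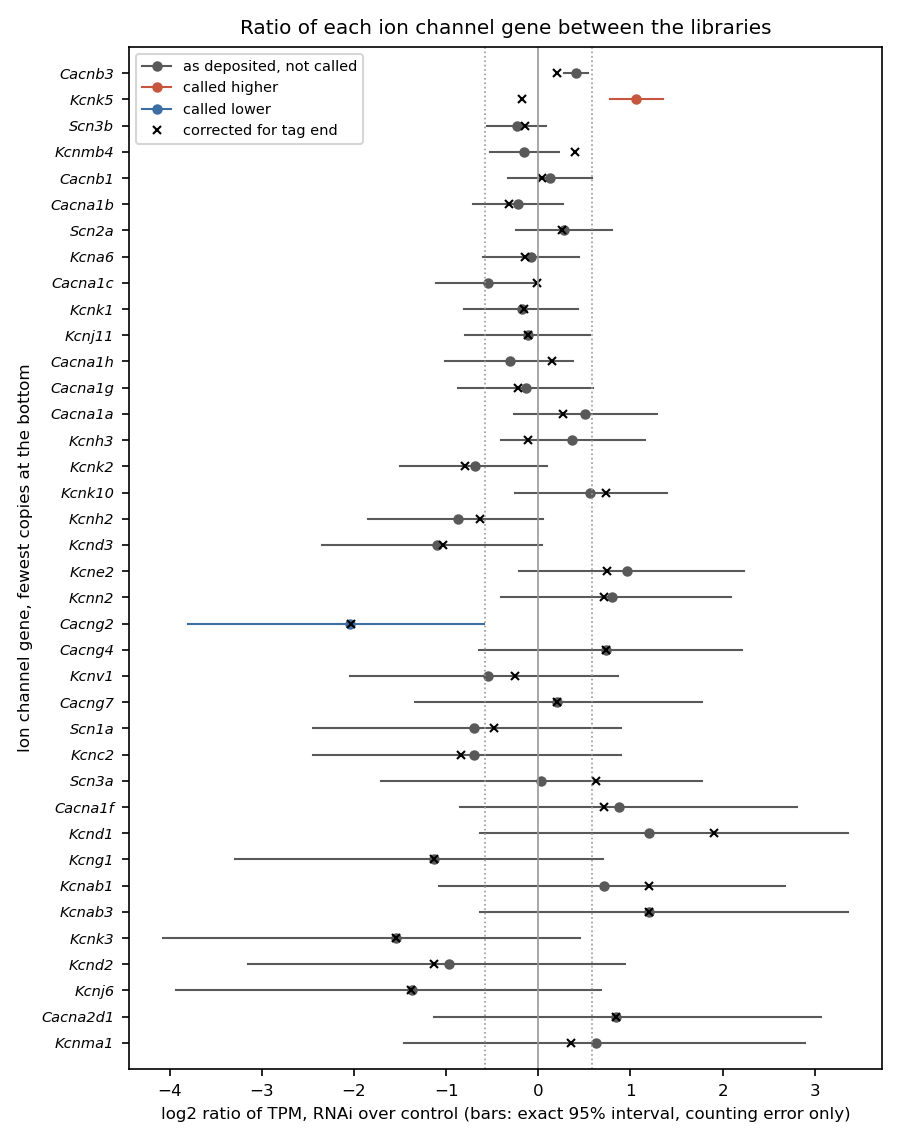
Log2 ratio of TPM (RNAi over control) of the same 38 channel genes, from most copied (top) to least, with exact 95% intervals for counting error; crosses give the ratio after correction for the tag end and dotted lines the threshold of 0.58. The cross of Kcnk5 lies at -0.17 against 1.06 as deposited, while that of Cacng2 is at -2.03.

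Summed over all channel genes, copies went from 2318 in the control to 2597 in the RNAi library, or from 684 to 786 TPM (log2 ratio 0.20, 95% interval 0.12 to 0.28). The interval of this sum depended on 2 genes. Without Kcnk5 and Cacnb3 it went from 1292 to 1157 copies, a log2 ratio of -0.12 (95% interval -0.24 to -0.0076), near the median of -0.09 of all genes. Among the 18 families, the interval of the sum excluded 0 only for Kcnk and Cacnb, and without Cacnb3 the Cacnb genes had 81 and 90 copies (0.19, 95% interval -0.26 to 0.64).

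**Figure D5:**
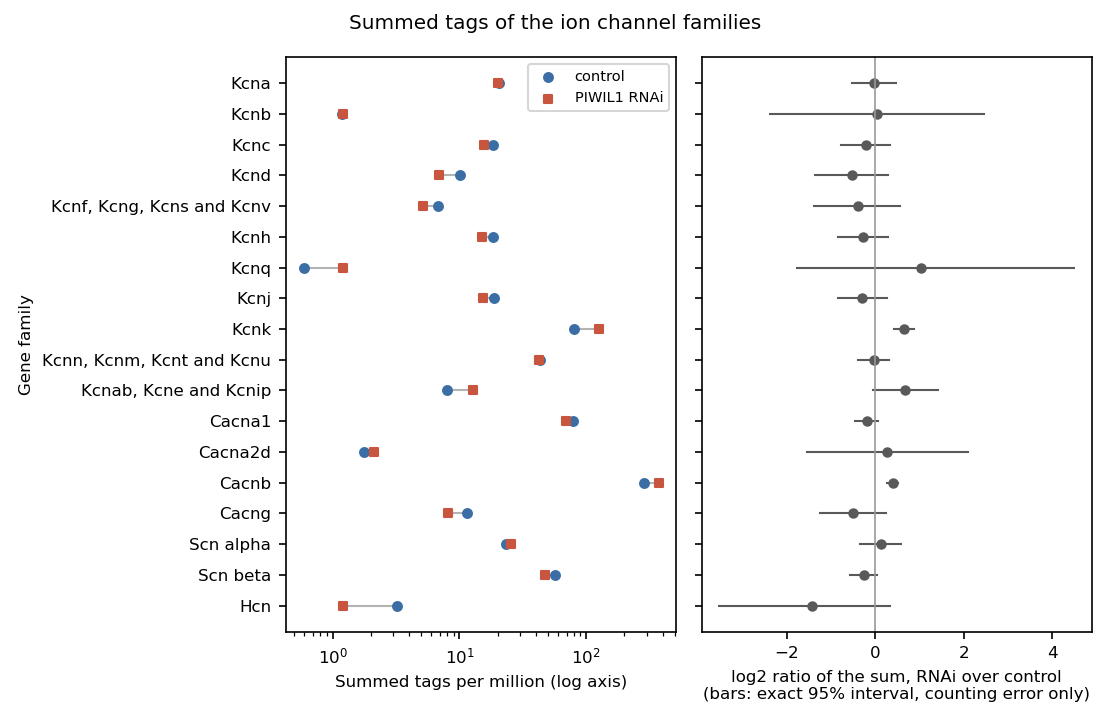
Left, summed TPM of each channel family in the control (circles) and RNAi library (squares), on a log axis; right, log2 ratio of the sums with exact 95% intervals for counting error. Kcnk (0.65) and Cacnb (0.39) lie above 0, and the intervals of the other families include 0.

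Of the copies of channel genes 76.5% were on the site nearest the 3′ end, against 63.6% over all genes, and 74.1% without Kcnk5. This share leans on Cacnb3, which held 40.9% of the channel copies and had 94.7% of its own on that site. Tags ending in 8 or more A were found for 1 of the 74 channel genes and for 171 of the 9894 genes in all. Of the 27 channel tags with at least 20 copies, from 20 genes, 13 were lower and 14 higher in the RNAi library.

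Proteins that anchor, modify or work beside these channels were taken as a list of 49 genes, of which 30 symbols (31 identifiers) had a tag. Of the 31, 3 (9.68%) were called lower, against 5.97% of all genes, and none higher, against 2.96%. An unadjusted p under 0.05 by Fisher's exact test was found for 8 of the 31 and for 26.5% of all genes. Ank3, whose product ankyrin-G anchors sodium and Kcnq channels at the axon initial segment, fell from 171 to 102 copies (log2 ratio -0.71, 95% interval -1.08 to -0.35; Fisher's exact test, FDR 0.00155), and a second identifier of the gene had 4 copies, all in the control. Atp1b1, a beta subunit of the sodium-potassium pump, fell from 425 to 213 copies (-0.96, 95% interval -1.20 to -0.72; Fisher's exact test, FDR 1.33e-13). Snap25, the SNARE protein that binds presynaptic calcium channels, fell from 918 to 545 copies (-0.72, 95% interval -0.87 to -0.56; Fisher's exact test, FDR 1.74e-17), and it is also in the neuron marker list.
Fgf13, an intracellular growth factor homologue that binds sodium channels and microtubules, had 566 and 371 copies, a log2 ratio of -0.57 just short of the threshold. The pump subunit Atp1b3 (360 and 286 copies, log2 ratio -0.30) was not called. With the tag-end correction the ratios on the log2 scale were -0.60 for Ank3, -0.73 for Atp1b1, -0.55 for Snap25, which was then not called, and -0.79 for Fgf13, which then was. Of the 3 called, only Atp1b1 was called by edgeR's exact test when a coefficient of variation of 0.1 was assumed, and none with 0.2 or 0.4 or with a log2 threshold of 1. Ank3 was not called with an FDR threshold of 0.001 or from its most copied tag alone.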

How the data were processed

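The deposited files give, for each gene of each library, the tag count without normalization and the TPM, which the authors scaled to clean tags. They also give the sequence, CATG site and copies of each tag. GEO's processing notes name rn4. The program, reference transcripts and mismatch rule of the tag matching are not given in the sources used here, and no coordinates are printed. Clean tags (3386865 in the control and 3303360 in the RNAi library) were recovered from count over TPM. Symbols came from the RefSeq table of GRCr8 by accession (9338 of 9894 genes, 1 by description). Log2 ratios are of deposited TPM, with Clopper-Pearson intervals at 95%. Fisher's test was two-sided.

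The channel genes, the partner list and the tests were chosen with earlier results of these data known. Genes named by rule were those called, the 12 with most copies and the most copied of each family; other genes were named to complete a family, after their values were seen. Some genes that entered the fits and counts are not reported here by name.

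For the tag-end correction, the last 2 bases of a tag, or the length of a final run of A from 3 upwards (lengths from 13 pooled), gave its class. Medians of the log2 ratio were taken over tags with 20 or more copies, with 0.5 copies added, in 1 of 2 random sets of genes. The difference of each class median from the median of all these tags was removed from the tags of the other set. A gene therefore never corrected itself. Other alternatives were edgeR's TMM factors, DESeq2's size factors, edgeR's exact test given an assumed spread between cultures, and filters. The test was also run on simulated counts with counting error only, in which only genes with many copies were changed. That run does not cover genes with few copies or the spread between cultures. Python 3.11.15, SciPy 1.17.1, R 4.3.3, edgeR 4.0.16 and DESeq2 1.42.0 were used.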

Additional observations from a re-analysis of the deposited data

How the results depend on the processing

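No paired analysis was possible because each condition had 1 library. Of the 14 alternatives, the count of channel genes called lower was 0 with 1 copy put back for tags in one library, with an FDR of 0.001, and with edgeR's exact test when the coefficient of variation between cultures was assumed to be 0.1, 0.2 or 0.4. The count called higher was 0 with a coefficient of 0.2 or 0.4, without the tags that end in at least 8 A (Kcnk5 then has no tag) and with the tag-end correction. Fisher's exact test gave 3 channel genes an unadjusted p under 0.05. With only the most copied tag of each gene, 2 genes were called higher (Kcnk5 and Kcnk15) and 1 lower, which was Kcnd3 (-2.05) and not Cacng2 (-1.45). The median log2 ratio of channel genes was 0.21 with the most copied tag only, where that of all genes was -0.05, -0.0090 with DESeq2 size factors and 0.00049 with TMM factors, and these scalings moved the median of all genes from -0.09 to -0.0055 and 0.0039. The cause of these differences was not tested, except that an assumed spread between cultures or a stricter FDR asks more of each gene.
Of the 245 ratios that 19 named genes had under an alternative, 227 kept direction and call, 8 lost a call, 1 gained one and 9 changed sign. Many of the 227 could not have changed direction, because some alternatives used the unchanged ratio. These were edgeR's exact test, the 2 stricter thresholds, a filter of at least 10 copies and all clean tags as totals. A stricter threshold also could not add a call. The sign changed with the most copied tag only for Cacna1b (0.58), Cacnb1 (-0.12), Hcn4 (0.036) and Kcnk1 (0.23), with TMM (0.0186) and DESeq2 factors (0.0091) for Kcna6, and with the tag-end correction for Kcnk5 (-0.17), Kcnmb4 (0.40) and Kcnh3 (-0.11). The split of all genes was 591 lower and 293 higher as reported, 459 and 398 with TMM factors, 475 and 382 with DESeq2 size factors and 374 and 182 with the tag-end correction; with a coefficient of 0.1 it was 170 and 114, with 0.2 it was 2 and 15, and with 0.4 none. With an FDR of 0.001 it was 257 and 163, and with a log2 threshold of 1 it was 262 and 146.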
